A study of Mus musculus with 6 samples.

Results

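The azurophil granule genes described here are Mpo, Elane, Prtn3 and Ctsg, which encode granule proteins, Cebpe and Gfi1, which encode transcription factors of granulocyte development, and Ms4a3, a membrane protein gene of granulocyte-monocyte progenitors. They were chosen by name, from the gene symbol of each probe, with earlier results of these data known. They are 7 of the 30142 genes measured by a probe of their own. Each had 1 probe. RNA was hybridised to 6 Clariom D Mouse arrays, 3 of platelets from mouse blood and 3 of bone marrow cells labelled megakaryocyte progenitors. The mice had received CTC41.5G-EVs, CTC41-EVs or PBS, and every combination of cell type and treatment has 1 array. EVs commonly abbreviates extracellular vesicles, and the labels do not say what CTC41.5G and CTC41 are. RNA of the mice in a group was pooled before hybridisation, so no group had a replicate. The labels name no strain, age, number of mice, dose or time. Some pools were cleared of white and red blood cells on magnetic beads and others were used directly, and the labels do not say which.

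Neutrophils form their azurophil, or primary, granules early, at the promyelocyte stage in bone marrow, and stop transcribing the genes of these granules as they mature. Mature neutrophils therefore carry the proteins but little of the mRNA. Myeloperoxidase, encoded by Mpo, makes hypochlorous acid from hydrogen peroxide and chloride. Elane, Prtn3 and Ctsg encode the serine proteases neutrophil elastase, proteinase 3 and cathepsin G. Platelets have no nucleus and carry RNA handed down from megakaryocytes, and megakaryocytes are not known for making these proteins.

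The arrays grouped by their labelled cell type, which does not show what cells the pools held. Across probes, which are not independent replicates, pairs of platelet arrays had correlations of 0.961 to 0.967, pairs of progenitor arrays 0.973 to 0.983, and mixed pairs 0.823 to 0.838. The median log2 signal was 4 to 4.05 on platelet arrays and 4.38 to 4.45 on progenitor arrays. Of 20 megakaryocyte and platelet markers, 18 were tested, and all 18 were higher in platelets, led by Ppbp (6.94, SE 0.18), Clec1b (6.78, SE 0.15), Rgs18 (6.66, SE 0.15) and P2ry12 (6.63, SE 0.13) on the log2 scale. On progenitor arrays these markers averaged 5.21 to 5.36 on the log2 scale. There 2 of them, Clec1b and P2ry12, lay below a floor of 4.23, the 50th percentile of all probes. Counted from the floor, Clec1b and P2ry12 differed by 6.50 and 6.12. Pf4, platelet factor 4, averaged 6.44 on progenitor arrays, and Ppbp, a platelet chemokine precursor, 5.49. Of the 18, 11 reached 5.07, the 75th percentile of all probes, in progenitors, with Itga2b, an integrin subunit of the lineage, at 6.51. Some granulocyte genes averaged above Itga2b there, such as Ngp (8.76), Camp (8.66) and Mpo (8.12), and others below it, such as Cebpe (4.42). These are signals of different probes, so their order does not rank amounts of RNA. Which cells made up the progenitor pools was not tested.

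Promoter sequences from RefSeq, build GRCm38.p6, were matched for 6 of the 7 genes, all but Cebpe. The promoters of the 4 granule protein genes are shown because all of these genes were called lower in platelets and share a run of letters. The 250 bases before the annotated start are printed 5′ to 3′ on the strand of the gene, at chr11:87793534-87793783 (plus strand) for Mpo, chr10:79886062-79886311 (plus) for Elane, chr10:79879417-79879666 (plus) for Prtn3 and chr14:56102575-56102824 (minus) for Ctsg. Capitals mark GAGGAA, the core of the sequence bound by PU.1, a transcription factor of myeloid cells.
Mpo: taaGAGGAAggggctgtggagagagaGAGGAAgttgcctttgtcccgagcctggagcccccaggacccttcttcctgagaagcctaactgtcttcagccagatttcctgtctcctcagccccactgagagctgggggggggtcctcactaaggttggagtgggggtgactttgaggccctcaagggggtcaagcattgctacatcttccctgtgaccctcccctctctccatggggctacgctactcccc
Elane: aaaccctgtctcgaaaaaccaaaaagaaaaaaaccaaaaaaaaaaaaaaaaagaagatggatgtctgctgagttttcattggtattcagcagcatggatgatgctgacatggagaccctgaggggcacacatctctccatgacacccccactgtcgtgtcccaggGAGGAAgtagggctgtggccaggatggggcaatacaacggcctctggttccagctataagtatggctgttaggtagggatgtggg
Prtn3: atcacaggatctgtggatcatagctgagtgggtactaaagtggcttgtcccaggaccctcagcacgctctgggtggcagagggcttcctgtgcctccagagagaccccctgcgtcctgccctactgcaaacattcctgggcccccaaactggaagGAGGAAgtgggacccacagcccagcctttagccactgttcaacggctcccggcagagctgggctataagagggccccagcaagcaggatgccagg
Ctsg: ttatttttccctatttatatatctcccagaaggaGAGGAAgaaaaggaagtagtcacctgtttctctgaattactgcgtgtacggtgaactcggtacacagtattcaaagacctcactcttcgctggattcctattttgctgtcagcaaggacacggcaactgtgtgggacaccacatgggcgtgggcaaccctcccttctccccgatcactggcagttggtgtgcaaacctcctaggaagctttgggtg

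GAGGAA, searched on both strands, was present in these 4 promoters and absent from the windows of Gfi1 and Ms4a3. It was present in 23.3% of all 32851 promoter windows of that length. It began at -85 in Elane, -95 in Prtn3 and -216 in Ctsg, counted from the start, and at -247 and -224 in Mpo, each time on the strand of the gene. A longer run overlapping it in Mpo, Elane and Prtn3, AGGAAGT, was picked after the sequences had been seen. It too was present in these 4 promoters and no other member's, against 7.69% of all windows. The MYB motif AACGG was found in Elane and Prtn3 (14.5% of windows), at -50 and -55, and AACTG in Mpo, Prtn3, Ctsg and Gfi1 (39.1%). The C/EBP motif TTGCNNAA was found in Gfi1 (9.56%), where it overlaps an AACTG, and TTNCNNAA, which contains it, in Gfi1 and Ms4a3 (36.8%). Of the GFI1 motifs, AAATCT was found in Mpo (12.6%) and AAATCA in no member (12.4%). A match describes letters and not a bound site.

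The first comparison asked how the genes differed between platelets and progenitors. The genes of the granule proteins and Ms4a3 were lower in platelets, led by Mpo (9.21-fold) and Elane (7.84-fold), while Cebpe and Gfi1 were not called. Tested with limma across 18875 genes, 5 of the 7 genes were called lower in platelets, at an adjusted p of at most 0.05 and a difference of at least 1.5-fold. Over all genes tested, 25.7% were called lower and 16.2% higher in platelets. In bulk RNA, fewer cells of a type and less RNA per cell cannot be told apart. All 7 genes entered the test on their mean over the 6 arrays, but Elane, Ctsg and Ms4a3 averaged below the floor of 4.23 in platelets, so they entered through the progenitor arrays.

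Mpo stood at 5.03, 4.80 and 4.93 on the platelet arrays of CTC41.5G-EVs, CTC41-EVs and PBS, against 8.41, 8.22 and 7.75 on the progenitor arrays in that order. The lowest progenitor array, PBS, was far above every platelet array. The log2 difference between the means, 4.92 ± 0.11 in platelets and 8.12 ± 0.34 in progenitors (SD, n = 3 each), was -3.20 (SE 0.15, limma adjusted p = 5.21e-06). Counted from the lowest difference, Mpo took place 54 of the 18875 genes tested.

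Elane stood at 4.19, 4.24 and 4.15 on the platelet arrays, in the order CTC41.5G-EVs, CTC41-EVs and PBS, against 7.25, 7.43 and 6.81 on the progenitor arrays. All 3 platelet values lay around the floor, near the middle of all probes, and the progenitor values did not overlap them. The difference was -2.97 (SE 0.13, limma adjusted p = 3.39e-06), or -2.93 when the platelet mean is raised to the floor. Its place from the lowest was 70 of 18875.

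Prtn3, which lies beside Elane on chromosome 10, differed less. It stood at 5.32, 5.22 and 5.36 on the platelet arrays against 6.52, 6.49 and 6.37 on the progenitor arrays, same order, without overlap. The difference was -1.16 (SE 0.11, limma adjusted p = 8.15e-05), a 2.23-fold lower signal, and place 1323 from the lowest.

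Ctsg had signals of 4.25, 4.13 and 4.12 in platelets, against 5.82, 6.05 and 5.75 in progenitors. The platelet values lay around the floor and below every progenitor value. The difference was -1.71 (SE 0.10, limma adjusted p = 9.99e-06), or -1.65 from the floor.

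Ms4a3 had signals of 3.59, 3.65 and 3.77 in platelets, all under the floor, against 5.34, 5.72 and 5.14 in progenitors. The difference of -1.73 (SE 0.14, limma adjusted p = 4.09e-05) was -1.17 when counted from the floor.

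Neither transcription factor gene was called. Cebpe, whose product C/EBPε drives the later steps of granulocyte maturation, had signals of 4.48, 4.49 and 4.56 in platelets, against 4.33, 4.41 and 4.50 in progenitors. All 6 values lay just above the floor and the cell types overlapped (difference 0.09, SE 0.09, limma adjusted p = 0.354). Gfi1, a repressor needed for neutrophil development, had signals of 5.10, 4.95 and 5.06 in platelets, against 5.71, 5.46 and 5.47 in progenitors. The cell types did not overlap, but the difference of -0.51 (SE 0.09, limma adjusted p = 0.00154) was 1.43-fold, short of the 1.5-fold a call required. With Gfi1, 6 of the 7 genes showed all 3 platelet arrays below all 3 progenitor arrays, as did 54.2% of all genes tested. At the edge of the fold, Prtn3 was the called gene with the smallest difference and Gfi1 the nearest gene outside.

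**Figure D1:**
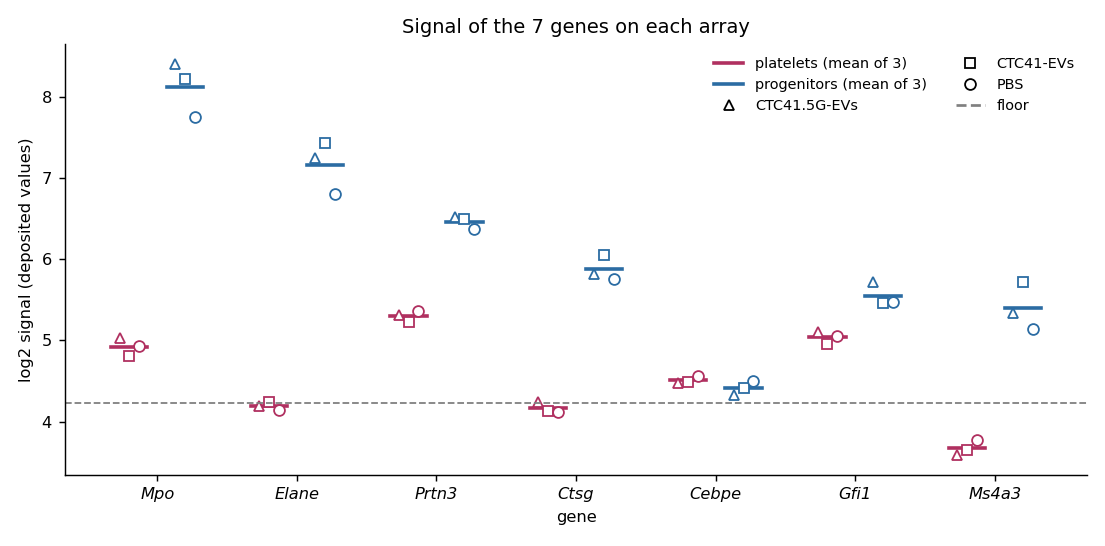
Signal of the 7 genes on each of the 6 arrays, as deposited log2 values, with platelets left of progenitors for each gene. Symbols give the treatment, horizontal bars the mean of the 3 arrays of a cell type, and the dashed line the floor of 4.23. Mpo and Elane show the widest gaps, and Cebpe lies near the floor in both cell types.

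The direction was the same under each treatment for all 7 genes. Within the CTC41.5G-EVs, CTC41-EVs and PBS arrays, Mpo differed by -3.38, -3.42 and -2.82 and Elane by -3.06, -3.20 and -2.66. Prtn3 differed by -1.20, -1.27 and -1.01, and Ms4a3 by -1.75, -2.08 and -1.37. In 6 of the 7 genes the PBS pair had the smallest gap, and Ctsg was the exception, with -1.57, -1.93 and -1.63. Of all genes whose progenitor mean reached the 75th percentile of all probes, 74.9% read above PBS there with CTC41.5G-EVs. With CTC41-EVs the share was 62.7%. The platelet arrays of a gene spanned at most 0.23 over all 7 genes. In all 7 the SD over progenitor arrays was larger than that over platelet arrays, in Prtn3 by little (0.08 against 0.07). The shares of all genes with the smallest gap in PBS, or with the larger SD in progenitors, were not counted.

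**Figure D2:**
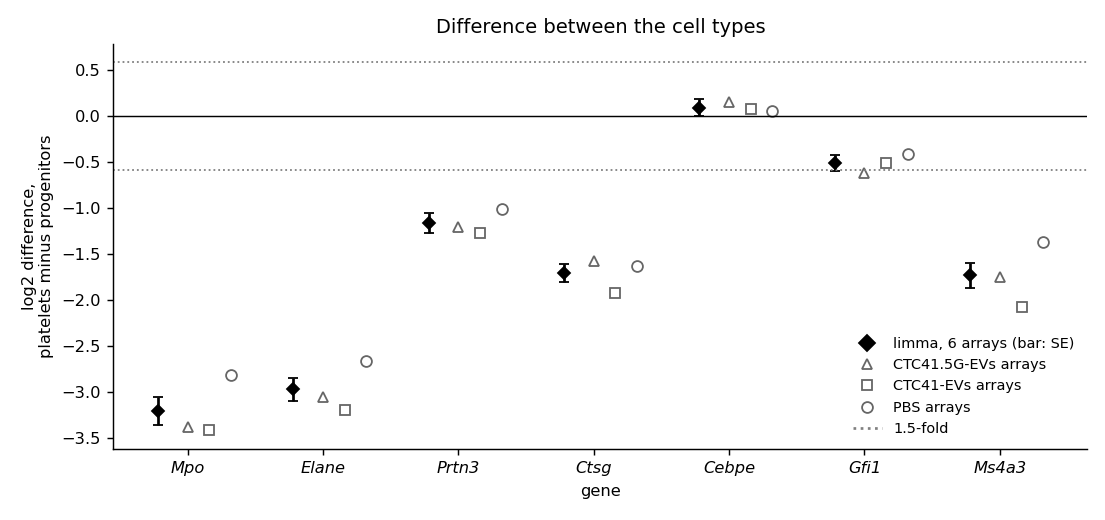
Log2 difference between platelets and progenitors for the 7 genes. Diamonds give the limma estimate over 6 arrays with its SE, open symbols the single pair of arrays of each treatment, and dotted lines a 1.5-fold difference. Mpo and Elane lie near -3 under all treatments, and the PBS pair has the smallest gap for both. With olfactory centring Gfi1 turns to 0.20.

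How far these differences stand out depends on the yardstick. Olfactory receptor genes, which blood cells are not known for expressing, were called lower in platelets in 220 of 250 tested cases, with a median difference of -1.12. They passed the floor on their mean over the 6 arrays, so some entered through the progenitor arrays, which favours genes low in platelets. Olfr1183, for example, averaged 3.17 in platelets and 5.41 in progenitors. The counts against this set depend on that filter. Of these 250 genes, 1 lay as low as Mpo and 1 as low as Elane, but 41 lay as low as Ms4a3, 42 as low as Ctsg and 118 as low as Prtn3. Arrays were also centred on the olfactory receptor genes, with no floor applied to these, which adds 0.72 to each difference. Mpo (-2.49), Elane (-2.25), Ctsg (-0.99) and Ms4a3 (-1.01) were then still called lower. In that setting Prtn3 (-0.44, limma adjusted p = 0.00733) was no longer called, Gfi1 turned to 0.20 (limma adjusted p = 0.0606), and Cebpe was called higher in platelets (0.81, limma adjusted p = 0.000154). Counts over all genes moved too. They were 4854 lower and 3063 higher as deposited, 2282 and 4140 after quantile normalization, 1911 and 4673 with equal array medians and 1033 and 7609 with olfactory centring.

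Other genes of azurophil granules were called in both directions. Of 28 genes of granule cargo, processing and sorting, 20 were tested, of which 3 were lower, 7 higher and 10 not called, with a median of 0.28, against -0.26 over all genes tested. The 3 lower genes were the serine protease Prss57 (-1.14, SE 0.08), the bactericidal protein gene Bpi (-0.71, SE 0.10) and the dipeptidyl peptidase Dpp7 (-0.59, SE 0.08). With olfactory centring none of the 20 was called lower and 15 were called higher. That centring called 1033 of all 18875 genes lower and 7609 higher, which is the background for its counts in the lists below. Of the genes higher in platelets, Lyz2, lysozyme, differed by 2.94 (SE 0.17) and Srgn, the proteoglycan serglycin that binds granule proteins, by 2.83 (SE 0.17). Hexa, a lysosomal hexosaminidase subunit, differed by 2.53 (SE 0.15), Serpinb6a, a serine protease inhibitor, by 2.29 (SE 0.16) and the lysosomal protease Ctsb by 1.58 (SE 0.13). Ap3b1, a subunit of the AP-3 adaptor that sorts cargo to lysosome-related organelles, differed by 1.29 (SE 0.09), or 1.27 from the floor. Limma adjusted p for these 9 genes was at most 0.000528. Several of these products also belong to lysosomes, monocytes or platelets.

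Of 20 markers of promyelocytes and early neutrophil precursors, 17 were tested, of which 4 were lower in platelets, 3 higher and 10 not called, with a median of -0.10. Kit, the receptor of stem cell factor and a marker of many progenitors, was lower by -1.39 (SE 0.09), and Fcnb, ficolin B, by -0.63 (SE 0.09). Higher in platelets was Ap3s1, another AP-3 subunit (2.01, SE 0.10, or 1.85 from the floor). So were Ly6c2, also a monocyte marker (0.94, SE 0.11), and the tetraspanin Cd63, also found in platelet granules (0.70, SE 0.14). With olfactory centring, 1 of the 17 was lower and 9 higher.

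Of 23 transcription factor genes of granulocyte development other than Cebpe and Gfi1, 20 were tested. Only Myb, a factor of immature cells, was lower (-0.93, SE 0.09, or -0.75 from the floor), 4 were higher and 15 were not called, with a median of 0.04. With olfactory centring 0 were lower and 14 higher. The higher genes included Elf1 (2.89, SE 0.15), Nfe2, a megakaryocyte and erythroid factor (2.16, SE 0.09), and Gfi1b, the paralog of Gfi1 that acts in megakaryocytes and erythroid cells (1.33, SE 0.15). Gfi1 and Gfi1b thus differed in opposite directions as deposited, of which only Gfi1b was called, and with olfactory centring Gfi1 no longer lay below 0.

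Several genes of later neutrophil granules and of other granulocytes were also lower in platelets. Of 21 tested late granule genes, 9 were lower in platelets and 1 higher, with a median of -0.51, against -0.26 over all genes tested. Under olfactory centring 4 were lower and 5 higher, with a median of 0.21, against 0.45 over all genes tested. Of all 18875 genes, 1033 were lower and 7609 higher in that setting. Ngp, neutrophilic granule protein, differed by -3.87 (SE 0.17), the cathelicidin gene Camp by -2.76 (SE 0.14), lactoferrin, Ltf, by -1.79 (SE 0.14) and lipocalin 2, Lcn2, by -1.75 (SE 0.09). Over the list, the mean log2 level was 5.03 to 5.14 on platelet arrays and 5.72 to 5.83 on progenitor arrays. Of 9 tested basophil and mast cell genes, 5 were lower and 2 higher. Among the lower were the proteases Mcpt8 (-2.59, SE 0.11) and Prss34 (-2.57, SE 0.14). The higher were Itga2, an integrin also of platelets (3.36, SE 0.11, or 3.17 from the floor), and Fcer1g (2.45, SE 0.12). Of 4 eosinophil genes, Prg2, a granule protein gene (-1.58, SE 0.13), and Epx, eosinophil peroxidase (-0.87, SE 0.08), were lower. Mcpt8 and Prg2 averaged below the floor in platelets, and counted from the floor they differed by -2.35 and -1.44. With olfactory centring the counts of lower and higher genes were 3 and 2 for basophil and mast cell genes and 1 and 0 for eosinophil genes. Of 17 tested mature neutrophil genes, 2 were lower and 4 higher, or 0 and 9 with that centring. Hcar2, a niacin receptor gene, differed by -1.30 (SE 0.10). Il1b, Clec4d and Mxd1 differed by 1.52 (SE 0.12), 1.52 (SE 0.11, or 1.48 from the floor) and 1.39 (SE 0.13).

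Markers of other blood cells were measured too. Of 8 tested B cell genes, 4 were lower in platelets, led by Vpreb2, a surrogate light chain gene of B cell precursors (-1.53, SE 0.11), followed by Vpreb3 (-0.95, SE 0.10), Cd79b (-0.87, SE 0.10) and Cd79a (-0.81, SE 0.10). With olfactory centring 1 B cell gene was lower and 1 higher. Of 14 monocyte and macrophage genes, 0 were lower and 3 higher, by the same limma call, namely F13a1, also a platelet gene (3.72, SE 0.15), Lyz2 and Ly6c2. With olfactory centring 0 were lower and 11 higher. Of 9 T and NK cell genes, the protease gene Gzma was called, higher in platelets (0.79, SE 0.12). Of 12 erythroid genes, 6 were higher, led by Fech (4.86, SE 0.16) and Alas2 (4.75, SE 0.14), which encode haem synthesis enzymes, followed by the anion exchanger Slc4a1 (2.17, SE 0.15) and the carbonic anhydrase Car2 (1.36, SE 0.14). Of 11 stem and progenitor genes, Kit and Myb were lower and Slamf1 (4.94, SE 0.14) and Adgrg1 (1.96, SE 0.18) higher. With olfactory centring 1 stem and progenitor gene was lower and 5 were higher, and 10 erythroid genes and 3 T and NK cell genes were higher. The part that cells of other lineages in the pools have in the values of the azurophil granule genes was not tested.

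**Figure D3:**
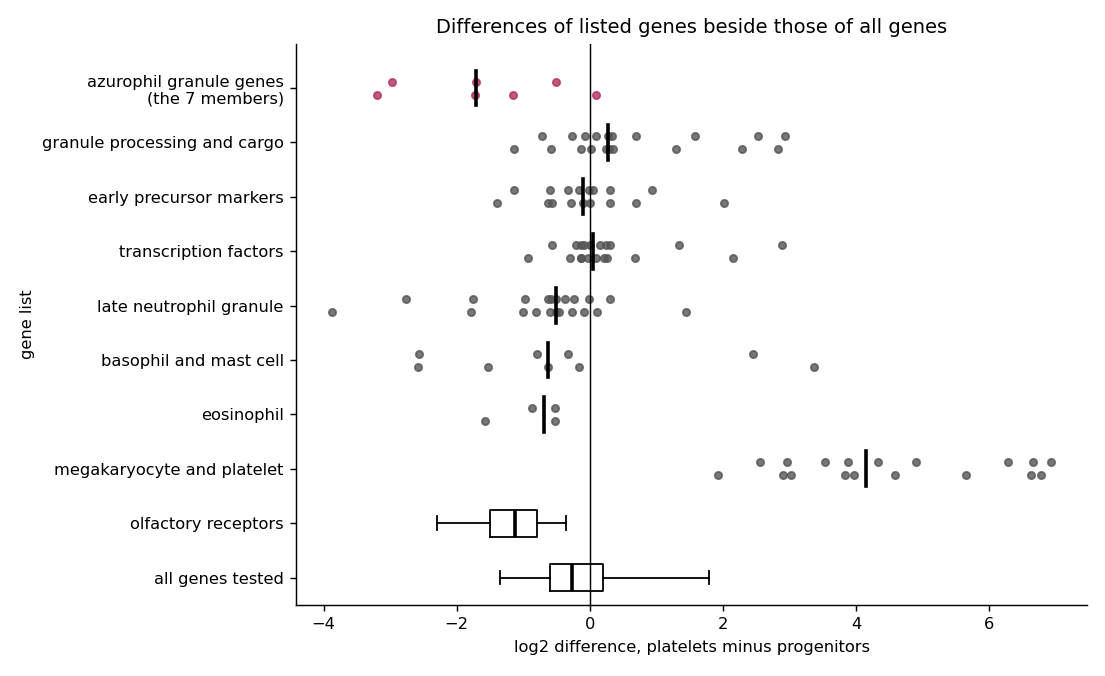
Log2 difference between platelets and progenitors for the tested genes of each list. Points are genes and black bars medians, and boxes give the quartiles with whiskers from the 5th to the 95th percentile for olfactory receptors and for all genes tested. The median of the 7 azurophil granule genes is -1.71, that of late neutrophil granule genes -0.51, of olfactory receptors -1.12 and of all genes -0.26 in deposited values, while with olfactory centring the first is -0.99, that of late granule genes 0.21 and that of all genes 0.45.

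The serine protease and peroxidase genes lie among relatives on their chromosomes, and the 3 nearest protein-coding genes on each side of every member were examined by RefSeq order. Of 36 such neighbours, 24 had a probe of their own, 13 were tested, 5 were lower in platelets, 1 was higher and 7 were not called, beside 25.7% lower and 16.2% higher over all genes. With olfactory centring 1 neighbour, Mcpt8 (-1.87), was lower and 4 were higher, namely R3hdm4, 1700123O20Rik, Acin1 and Med16. Over all 18875 genes that centring called 1033 lower and 7609 higher. The directions of Lpo, Mks1, Tspoap1 and Ptbp1 turned positive there, without a call. Ctsg has Mcpt8, Mcpt4 and Mcpt9 on one side, proteases named for mast cells, and the granzyme genes Gzme, Gzmd and Gzmg on the other. Mcpt8 differed by -2.59, beside -1.71 for Ctsg (-2.35 and -1.65 from the floor), and Gzmg by -0.92 (SE 0.15, limma adjusted p = 0.0011). Mcpt4 and Mcpt9 averaged 3.62 and 3.21 in platelets and 4.33 and 4.16 in progenitors, near or under the floor, and were not tested.

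Mpo has a pair of related peroxidase genes nearby on chromosome 11. Epx was called lower, while Lpo, lactoperoxidase, differed by -0.57 (SE 0.13, limma adjusted p = 0.00627) and was not called for its size, nor were Mks1 (-0.51, SE 0.08) and Tspoap1 (-0.46, SE 0.09). Beside Prtn3 and Elane on chromosome 10, Misp was lower (-0.99, SE 0.11) and R3hdm4 higher in platelets (3.00, SE 0.16). Ptbp1 (-0.34, SE 0.15) and Med16 (-0.04, SE 0.10), on either side of that pair, were not called. Beside Cebpe, Slc7a8 was lower (-0.94, SE 0.12), Acin1 (0.07, SE 0.08) and 1700123O20Rik (0.44, SE 0.09) were not called, and Homez was not tested. The neighbours of Gfi1 and Ms4a3 with a probe of their own, which are Evi5, Rpap2, Glmn, Ube2d2b and Oosp1 and the Ms4a3 relatives Ms4a2, Ms4a6d and Ms4a4d, averaged below the floor over the 6 arrays and were not tested. The other 12 neighbours were not analysed here.

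The genes whose profile over the 6 arrays was most like the centred mean profile of Mpo, Elane, Prtn3 and Ctsg included none annotated here as protein-coding. Among 18868 genes compared by root mean square distance of centred log2 values, the nearest were Gm23116 (distance 0.0534), Gm23610, Gm25781, Gm23648, Gm24856, Gm22009, Gm22352, Gm24584, Gm22749 and Mir1950 (distance 0.103), against a median distance of 1.01. Of these 10, 9 had no RefSeq match here, so their gene type was not known, and 1 was a miRNA gene. Gm22352 and Gm24584 carried the same values. Gm23116 differed by -2.32 (SE 0.15) between platelets and progenitors. The nearest protein-coding genes, looked up after this had been seen, were Spem1, a sperm maturation gene (distance 0.13, place 73), and 9 others, of which 5 were olfactory receptor genes. The members themselves lay further from that mean profile. Distances were 0.288 for Ctsg, 0.291 for Ms4a3, 0.365 for Elane, 0.483 for Mpo, 0.557 for Prtn3, 0.882 for Gfi1 and 1.19 for Cebpe. This distance counts the size of a difference as well as its shape, and the nearest genes were picked as such from 18868. It therefore does not show whether the members share the shape of a profile.

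The next comparison asked whether EVs changed these genes. Averaged over both cell types, limma called 0 of 18875 genes for CTC41.5G-EVs against PBS, 0 for CTC41-EVs against PBS and 0 for CTC41.5G-EVs against CTC41-EVs. At an unadjusted p under 0.05 these limma contrasts had 1171, 577 and 1157 genes, where 944 would be expected if no gene differed. Of the 7 genes, 0 had an unadjusted p under 0.05 in any of the 3 limma contrasts. The smallest were 0.0506 for Elane with CTC41-EVs (0.36, SE 0.15, limma adjusted p = 1) and 0.0817 for Mpo with CTC41.5G-EVs (0.38, SE 0.19, limma adjusted p = 0.803). An effect of opposite sign in platelets and progenitors would cancel in this average. Contrasts inside 1 cell type set 1 array against 1 array and have no test.

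In progenitors, Mpo and Elane read higher on both EV arrays than on the PBS array. Mpo was at 8.41 with CTC41.5G-EVs and 8.22 with CTC41-EVs, against 7.75 with PBS, differences of 0.66 and 0.47. Elane was at 7.25 and 7.43 against 6.81, differences of 0.44 and 0.63. Ms4a3 differed from PBS by 0.19 with CTC41.5G-EVs and 0.58 with CTC41-EVs, just short of the 1.5-fold line at 0.585, and Ctsg by 0.07 (-0.05 after quantile normalization) and 0.30. Prtn3 differed by 0.15 and 0.12, Gfi1 by 0.24 and -0.01, and Cebpe by -0.17 and -0.09.

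At 1.5-fold or more, Mpo was past the line with CTC41.5G-EVs and Elane with CTC41-EVs, each 1 of the 6 members, all but Cebpe, whose progenitor mean reached the 75th percentile of all probes, 5.07. Of all genes at that level in progenitors, 5.47% were higher by 1.5-fold with CTC41.5G-EVs and 3.09% with CTC41-EVs, and 0.746% and 0.101% were lower. The median difference over the 6 members at that level was 0.22 with CTC41.5G-EVs and 0.39 with CTC41-EVs, against 0.13 and 0.04 over all such genes, with 74.9% and 62.7% of all such genes above 0. Both comparisons use the same PBS array. After quantile normalization the difference of Mpo was 0.35 with CTC41.5G-EVs and 0.23 with CTC41-EVs, and that of Elane 0.24 and 0.44, so neither reached 1.5-fold there, while Ms4a3 with CTC41-EVs stood at 0.61.

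Late granule genes were read on the same arrays. Ngp differed from PBS by 0.03 with CTC41.5G-EVs and 0.27 with CTC41-EVs in progenitors, Camp by -0.03 on both, Ltf by 0.00 and -0.10, and Lcn2 by 0.03 and -0.11. In platelets, where its level is lower, Ngp read 0.81 and 0.69 above PBS. Among 16 late granule genes at the 75th percentile in progenitors, 0 were past 1.5-fold in either comparison, with medians of 0.11 and 0.03. Of the genes of other lists at that level in progenitors, Srgn, Cpa3, a mast cell protease gene, Ppbp, Adgrg1 and the granulocyte factor gene Cebpa were past 1.5-fold upwards with CTC41.5G-EVs. Below that level Fut4 (0.59) was past 1.5-fold upwards and the platelet glycoprotein gene Gp5 (-0.81) downwards. The basophil protease genes Mcpt8 and Prss34 differed by 0.04 and 0.28 with CTC41.5G-EVs and by 0.44 and 0.53 with CTC41-EVs. None of these differences has a replicate.

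Between the EV types, CTC41.5G-EVs minus CTC41-EVs in progenitors, Mpo differed by 0.19, Elane by -0.19, Prtn3 by 0.03, Ctsg by -0.24, Cebpe by -0.08, Gfi1 by 0.25 and Ms4a3 by -0.39. Of the 7 members, 3 were higher and 4 lower, 0 by 1.5-fold, against 0.608% of genes higher and 0.783% lower at that size.

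In platelets the 7 genes differed little between treatments. With CTC41.5G-EVs the differences from PBS ran from -0.19 (Ms4a3) to 0.12 (Ctsg), with 4 members higher and 3 lower. With CTC41-EVs they ran from -0.14 (Prtn3) to 0.09 (Elane), with 2 higher and 5 lower. Between the EV types, CTC41.5G-EVs minus CTC41-EVs, they ran from -0.06 (Ms4a3) to 0.23 (Mpo), with 4 higher and 3 lower. Of all genes whose platelet mean reached the 75th percentile of all probes, 51.4%, 38.9% and 61% were higher, in that order. In these contrasts 0 members were past 1.5-fold, while 0.643%, 0.449% and 2.79% of genes were higher and 1.31%, 2.34% and 0.885% lower by that much. Only Prtn3 had a platelet mean at the 75th percentile of all probes.

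**Figure D4:**
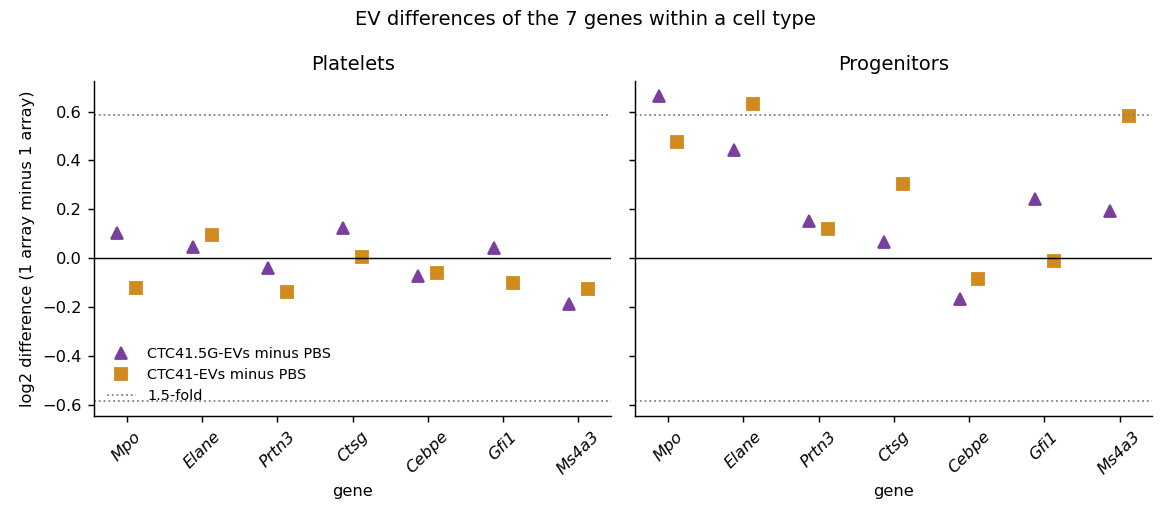
Log2 difference from the PBS array for CTC41.5G-EVs (triangles) and CTC41-EVs (squares) in platelets and in progenitors, 1 array minus 1 array for each point. Dotted lines mark 1.5-fold. In platelets all points lie between -0.19 and 0.12, and in progenitors Mpo with CTC41.5G-EVs (0.66) and Elane with CTC41-EVs (0.63) pass the line.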

How the data were processed

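The deposited values are log2 signals, 1 per probe and array, from 0.233 to 14.06. Per the submitters' processing notes the authors used Expression Console (Affymetrix, version 1.4.1.46). The design text names MAS5.0 instead, so how the arrays were scaled remains unclear, and the log base was taken from the range of the values. The sources used here do not give the build of the authors' annotation. Of 72688 probes, 30604 named 1 gene and were used, and 22818 of these matched RefSeq (GRCm38.p6) by Entrez identifier. Where a gene had several probes, that of the highest mean was kept.

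Cell types were compared with limma 3.58.1 in R 4.3.3, with additive terms for cell type and treatment, 2 residual degrees of freedom and an intensity trend, over 18875 genes whose mean reached the 50th percentile of all probes (4.23). Adjusted p-values are Benjamini-Hochberg over those genes. The 3 arrays of a cell type differ in treatment and stand in for replicates. The labels do not say whether the pools were independent, so p-values measure the spread between these arrays only, and their number limits the precision. EV differences within a cell type have no test. The fit was tested on simulated data. Figures were drawn with matplotlib 3.10.9.

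The members and lists were chosen with earlier results of these data known. Named genes are all members, the 4 called genes of each list with the largest difference (6 in the lists of granule cargo and early precursor markers, with any against the majority), all genomic neighbours and the 10 genes of most similar profile. The alternatives were 3 other scalings, 3 other floors, low values set to the floor, the eBayes trend, the treatment term, the probe rule and leaving out each array.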

Additional observations from a re-analysis of the deposited data

Results flagged for a closer look

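Some genes differed in opposite directions in platelets and progenitors under the same EV contrast, each from 1 array against 1 array, so these differences between the cell types were not tested. With CTC41-EVs against PBS, Ms4a3 differed by -0.12 in platelets and 0.58 in progenitors, a gap of -0.71. Mpo differed by -0.12 and 0.47, a gap of -0.60. Prtn3 differed by -0.14 and 0.12, a gap of -0.26. With CTC41.5G-EVs against PBS, Ms4a3 differed by -0.19 in platelets and 0.19 in progenitors, a gap of -0.38, and Prtn3 by -0.04 and 0.15, a gap of -0.20. Between CTC41.5G-EVs and CTC41-EVs, Ctsg differed by 0.12 in platelets and -0.24 in progenitors, a gap of 0.36. The first 3 share a PBS array in each cell type with the next 2. The mean signals of Ms4a3 and Ctsg in platelets lay below the floor. Of all genes at the 75th percentile of all probes, 38.9% were above PBS with CTC41-EVs in platelets and 62.7% in progenitors. With CTC41.5G-EVs these shares were 51.4% and 74.9%, and for CTC41.5G-EVs minus CTC41-EVs 61% and 68.5%. How many of all genes had opposite signs in the cell types was not counted.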

How the results depend on the processing

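Mpo, Elane, Ctsg and Ms4a3 kept their direction and call in every alternative in which they were tested (16, 15, 14 and 14 of them), with ranges of -3.40 to -2.49, -3.13 to -2.25, -1.78 to -0.99 and -1.91 to -1.01. Not all of these are separate checks. The other floors, the trend, the treatment term and the probe rule could not move a member's difference, only its p-value. Leaving out the platelet or the progenitor array of a treatment gave the same difference. Prtn3 was called in 15 of 16, Gfi1 in 0 of 15 and Cebpe in 1 of 14. Centring on olfactory receptor genes gave the 3 exceptions, Prtn3 at -0.44, Cebpe at 0.81 and Gfi1 at 0.20, with 1 member then called higher. Cebpe and Gfi1 also moved upwards in the other scalings, without a call. Cebpe stood at 0.46 after quantile normalization and 0.47 with equal medians (limma adjusted p = 0.00368 and 0.00335). Gfi1 stood at -0.22 and -0.14 in that order (limma adjusted p = 0.0443 and 0.183). The median of the members was -1.40 after quantile normalization, -1.33 with equal medians, -0.99 with olfactory centring, -1.17 with low values set to the floor, and -1.75 to -1.56 when 1 array was left out. Floors at the 75th and 90th percentiles left fewer members tested, 3 and 2 of them called lower, with medians of -2.06 and -2.18. Genes called lower numbered 2282 (quantile), 1911 (equal medians), 1033 (olfactory), 2356 (75th percentile) and 685 (90th), and genes called higher 4673, 7609 and 1430 with equal medians, olfactory centring and the 90th percentile. The cause of the shifts with scaling was not tested.

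Genes past 1.5-fold in platelets numbered 145 and 183 after quantile normalization for CTC41-EVs against PBS and CTC41.5G-EVs against CTC41-EVs. With olfactory centring they numbered 267 for CTC41.5G-EVs against PBS in platelets and 443 in progenitors. With the lower floor they numbered 361, 416 and 545 in platelets for CTC41.5G-EVs against PBS, CTC41-EVs against PBS and CTC41.5G-EVs against CTC41-EVs, and 293 for the last in progenitors. Of 126 EV differences of single members under 3 other scalings, 108 moved by less than the residual SD of that gene and 18 by more. A change of sign was checked only for Mpo with CTC41.5G-EVs and Elane with CTC41-EVs in progenitors, the differences past 1.5-fold, and 0 changed. Some smaller differences did change sign, such as Ctsg with CTC41.5G-EVs against PBS in progenitors, from 0.07 to -0.05 after quantile normalization. Signals near the floor limit what can be said of Elane, Ctsg and Ms4a3 in platelets and of Cebpe in both cell types. Each platelet array is matched with the progenitor array of its treatment through the treatment term, and without that term 5 members were again called lower, with 4850 genes lower and 3064 higher. A pairing by replicate number could not be made, since each group holds 1 array and the labels give no replicate numbers. Each member has 1 probe, so the probe rule could not move its value.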
